A study of Mus musculus with 40 samples.

Results

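The step from all-lymphoid progenitors (ALPs) to B cell-biased lymphoid progenitors (BLPs) was followed in mice without Mbd3. The 10 libraries were those whose column names in the count table read Mbd3del with BLP or ALP, 5 of each, out of 40 in the series. They were paired by the mouse number in the name, so each of 5 mice gave 1 BLP and 1 ALP library. The mice carried the genotype Mbd3_Del/Del, in which both alleles are deleted, on a C57BL6/129Ola background, and were 46 to 51 days old, 3 labelled male and 2 female. Both populations came from bone marrow of femurs and tibiae and were sorted as Flt3hi and IL-7Ra+ cells that were also Sca-1+ and c-Kit+ and lacked lineage markers (Lin-) and B220, and BLPs carried Ly6D whereas ALPs did not. Mbd3_Flox/Flox mice of the same background and age range, with intact alleles flanked by recombination sites, served as controls and gave 5 BLP and 5 ALP libraries in the same way. The Cre driver and the tissues in which the deletion took place were not given in the sources used here. Libraries were prepared by Smart-seq2, which copies whole transcripts and marks neither molecules nor strand, each from a pool of 100 sorted cells per the sample labels, while the series text gives another number.

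Mbd3 is a subunit of the NuRD complex, which couples nucleosome remodelling to histone deacetylation and tunes the activity of enhancers and promoters. ALPs can still give rise to B, T, NK and dendritic cells, and gain of surface Ly6D marks the progenitors in which the B lineage programme begins. In that programme the transcription factors Tcf3, Ebf1 and Foxo1 act on genes of the recombinase and of the pre-B cell receptor, which is built from the surrogate light chain (Vpreb1 and Igll1), the immunoglobulin heavy chain and the signalling chains Cd79a and Cd79b. Ly6D+ progenitors also include precursors of plasmacytoid dendritic cells, which secrete type I interferon.

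The labels were checked against the genes they name. Mbd3 had 0, 1.41, 0.193, 0.488 and 0 CPM in BLPs of mouse10360, mouse10361, mouse10365, mouse10376 and mouse10384, and 0.697, 0, 0, 3.24 and 0.283 CPM in their ALPs, an order kept throughout; CPM values are counts scaled to the gene counts of the library. Control mice averaged 45.7 ± 17.2 CPM in BLPs and 61.7 ± 59.6 CPM in ALPs (SD, n = 5 each); the deleted part of the gene was not given in the sources used here. Ly6d, the gene of the gate, had 13494, 6736, 6211, 13718 and 9351 CPM in BLPs and 493, 249, 261, 71.5 and 271 CPM in ALPs. Its difference follows from the sort and is not a finding. The other gate genes Ly6a, Il7r, Kit and Flt3 served to sort both populations alike. Of these, Ly6a was nevertheless called higher in BLPs (log2 fold change 1.51), whereas Il7r, Kit and Flt3 were not called. Libraries held 3547381 to 8201998 gene counts in BLPs and 6289528 to 8025274 in ALPs, 13234 to 15311 genes with a count and 2.55% to 6.45% mitochondrial counts. A count of 3 equals 0.366 to 0.846 CPM. The ALP library of mouse10376 had the most genes and the lowest mitochondrial share. On the first 2 principal components of the 1000 most variable genes, the BLP library of mouse10376 and the ALP library of mouse10384 lay farthest out, and in control mice the ALP library of mouse10380 and the BLP library of mouse10372 did. Among markers of other cell types, Cd3e had no count in either population, while Cd8a and Ly6g had counts in BLPs but none in ALPs. T lineage and Notch genes summed to 599.6 to 770 CPM in BLPs and 508 to 1101 CPM in ALPs. NK and innate lymphoid genes summed to 687 to 937 and 514 to 1170 CPM. Macrophage genes summed to 3.47 to 13.5 CPM in BLPs and 0 to 15.6 CPM in ALPs. Platelet genes summed to 1.41 to 10.9 and 0.836 to 45.7 CPM, and erythroid genes to 36.1 to 164 and 135 to 217 CPM. Stromal and endothelial genes summed to 149.8 to 304 CPM in BLPs and 167 to 309 CPM in ALPs, and genes of mature B and plasma cells to 397 to 678 and 322 to 481 CPM; their part in the results was not tested. In pools of sorted cells, fewer cells of a type and less RNA per cell cannot be told apart.

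Among the genes called between Mbd3del BLPs and ALPs, more rose than fell. Log2 fold changes of all genes tested were positive in 5379 and negative in 5463. Of 10842 genes tested, 37 were higher in BLPs (0.341%) and 4 were lower (0.0369%) by the quasi-likelihood F test of edgeR with the mouse as a block and a Benjamini-Hochberg adjusted p under 0.05. The genes that rose included 7 genes of the pre-B cell receptor and early B cell surface, and Ebf1, a B lineage factor gene. Also among them were the recombinase gene Rag1, Siglech and Irf8 of the dendritic cell list, and Ly6d, the gene of the gate. Those that fell were Cd34, Gcnt2, Ctr9 and Lrrc23. All 37 were higher in BLPs of 5 of 5 mice, and all 4 were lower in 5 of 5. Over all genes tested 514 (4.74%) were higher and 609 (5.62%) lower in every mouse. In 33 of the 37 and in all 4 the 5 BLP and 5 ALP libraries did not overlap, against 174 genes above (1.6%) and 120 below (1.11%) among all 10842. Log2 fold changes, BLP over ALP, ran between 1.15 and 7.01 for the 37 and between -7.95 and -1.65 for the 4, and the median of all genes was -0.01. An unadjusted p under 0.05 was found for 784 genes (7.23%).

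The number of calls depended on each mouse. Without mouse10360 5 genes were called higher and 0 lower, without mouse10361 10 and 1, without mouse10365 11 and 1, without mouse10384 7 and 0, and without mouse10376 34 and 13. All of these genes were among the 37 and the 4, except without mouse10376, where 25 of the 34 and 1 of the 13 were. Ly6d, Ly6c2, Cd79a, Siglech and Chchd10 were called without each mouse and under all 14 alternative settings. Of these, the call of Ly6d follows from the sort. None of the 41 changed direction under any setting that tested it. DESeq2 called 278 genes higher and 107 lower, among them all 41. A joint fit of all 40 libraries called 30 higher and 26 lower, with 16 and 3 shared with the genes above. Counts of 14 of the 41 are uncertain because another annotated gene overlaps them and strand was not marked, as with Atp1b1 and Nme7, Chchd10 and Mmp11, Ctsb and Fdft1, and Cd34 and Gm16897.

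**Figure D1:**
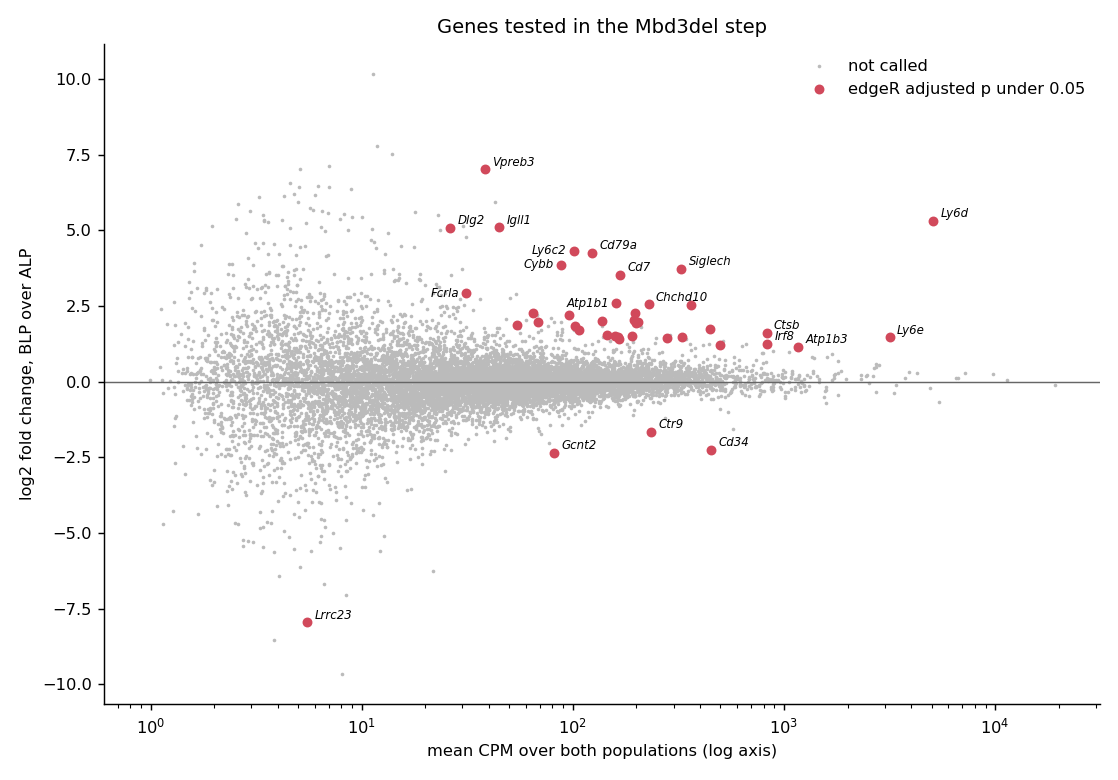
Log2 fold change, Mbd3del BLP over Mbd3del ALP, of the 10842 genes tested (y axis) against their mean CPM over both populations (x axis, log scale). Red points are the 41 genes with an edgeR adjusted p under 0.05, of which those at the largest folds or levels are labelled, and grey points are the other genes. Red points lie mostly above 0, with 37 above and 4 below.

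Genes of the pre-B cell receptor and of the signalling below it rose in BLPs. Of the list of 21 such genes and early B surface genes, 17 were tested and 7 were called, all higher in BLPs: Vpreb3, Igll1, Cd79a, Fcrla, Blk, Mzb1 and Blnk. The median log2 fold change of the 17 was 1.72, against -0.01 over all genes. Of the 17, 16 were positive and 10 were higher in 5 of 5 mice, against 4.74% of all genes tested. Promoters of genes of this list and of a neighbour are shown because these genes rose in the same step and because binding motifs of early B cell factors can be read in them. They are RefSeq promoters on GRCm38.p6, 250 bases before to 50 bases after the start, 5′ to 3′ on the gene's strand, and capitals mark the core of the EBF motif (CCCNNGGG) and the E-box bound by E proteins (CAGNTG), searched on both strands, where matches may overlap.
Cd79a, chr7:24897247-24897546, plus strand: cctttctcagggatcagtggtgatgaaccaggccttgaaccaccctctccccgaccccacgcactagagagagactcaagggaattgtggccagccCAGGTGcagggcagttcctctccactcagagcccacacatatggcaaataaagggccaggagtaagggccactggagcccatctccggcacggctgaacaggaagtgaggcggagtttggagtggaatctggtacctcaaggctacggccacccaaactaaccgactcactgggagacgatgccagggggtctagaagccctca
Igll1, chr16:16863936-16864235, minus strand: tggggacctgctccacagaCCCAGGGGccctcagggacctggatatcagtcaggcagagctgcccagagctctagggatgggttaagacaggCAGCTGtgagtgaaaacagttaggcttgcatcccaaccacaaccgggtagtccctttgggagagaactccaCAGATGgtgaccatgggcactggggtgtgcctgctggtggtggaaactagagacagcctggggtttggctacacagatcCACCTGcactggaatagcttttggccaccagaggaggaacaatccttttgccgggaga
Vpreb3, chr10:75948050-75948349, plus strand: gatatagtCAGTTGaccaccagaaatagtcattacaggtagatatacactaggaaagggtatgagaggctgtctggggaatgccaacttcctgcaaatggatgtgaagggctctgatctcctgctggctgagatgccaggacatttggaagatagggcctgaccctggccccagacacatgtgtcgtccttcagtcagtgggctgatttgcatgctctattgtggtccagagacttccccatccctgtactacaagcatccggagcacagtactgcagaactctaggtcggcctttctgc
Chchd10, chr10:75932880-75933179, plus strand: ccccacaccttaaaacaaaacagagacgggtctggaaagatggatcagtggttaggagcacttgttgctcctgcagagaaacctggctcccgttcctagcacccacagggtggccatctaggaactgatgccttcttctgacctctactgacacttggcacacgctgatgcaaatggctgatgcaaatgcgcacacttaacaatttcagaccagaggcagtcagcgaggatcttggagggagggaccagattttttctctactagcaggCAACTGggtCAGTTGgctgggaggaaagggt

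The Igll1 window held 1 EBF core and 3 E-boxes, the Chchd10 window 2 E-boxes, and the Cd79a and Vpreb3 windows 1 E-box each and no exact match to the EBF core. Only exact matches to these patterns were counted. A window without a match may still hold a site that departs from them, which was not searched. Of the 12 genes named by rule for the largest rise among called genes, Ly6d included, 10 had a RefSeq promoter, with 13 promoters in all. Of these promoters 2 (15.4%) held the EBF core and 11 (84.6%) an E-box. Among all 32851 promoters the shares were 13.7% and 51.4%. Counted by gene, 9 of the 10 held an E-box, against 14767 of all 27025 genes with a promoter. Among the 40 promoters found for 29 of 41 genes on the 2 B lineage lists, 5 (12.5%) held the EBF core and 21 (52.5%) an E-box. Chchd10 and Vpreb3 are neighbours on chromosome 10, with 5309 bases between them, and the Vpreb3 window lies inside the span that GENCODE gives to Vpreb3. Vpreb1 and Igll1 are neighbours on chromosome 16, 4417 bases apart.

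Cd79a, the Ig-alpha signalling chain of the pre-B and B cell receptor (ENSMUSG00000003379.7, chromosome 7 from 24897381 to 24902197 on the plus strand, GRCm38), had 225, 375, 211, 85.6 and 276 CPM in BLPs and 7.67, 10.3, 11.1, 14.1 and 17 CPM in ALPs. The lowest BLP library lay above the highest ALP library in this gene, and its log2 fold change was 4.25 ± 0.37 (SE, edgeR adjusted p = 0.00328). Igll1, the lambda 5 part of the surrogate light chain (chromosome 16 from 16860671 to 16863985 on the minus strand), had 50.9, 233, 17, 31.8 and 96.7 CPM in BLPs and 6.55, 7.45, 0, 0 and 4.67 CPM in ALPs. BLPs of mouse10361 were the highest and those of mouse10365 the lowest, and 2 ALP libraries had no count. Its log2 fold change was 5.10 ± 0.83 (edgeR adjusted p = 0.0473). Vpreb3, a relative of the surrogate light chain that binds immunoglobulin chains in the endoplasmic reticulum (chromosome 10 from 75943057 to 75949657 on the plus strand), had 45.9, 147, 29.5, 62.7 and 87.6 CPM in BLPs and 0.139, 0, 0, 0.748 and 8.63 CPM in ALPs, where mouse10384 stood out and the other 4 libraries were below 1 CPM. The groups did not overlap, and the log2 fold change was 7.01 ± 1.09 (edgeR adjusted p = 0.0389). Counts of Igll1 and of the other surrogate light chain genes are uncertain because similar copies can share reads. The partners Vpreb1 and Vpreb2, which form the other part of the surrogate light chain, did not pass, with log2 fold changes of 2.93 ± 0.69 and 3.13 ± 0.56 (edgeR adjusted p = 0.172 and 0.0577), although BLPs and ALPs did not overlap in either. Vpreb1 had 38.7, 67.4, 19.1, 47.9 and 42.9 CPM in BLPs and 9.76, 2.0, 5.56, 2.62 and 12.9 CPM in ALPs. Cd79b, the Ig-beta chain, had a log2 fold change of 0.79 ± 0.32 (edgeR adjusted p = 0.635), with 169 to 265 CPM in BLPs and 72.3 to 198 CPM in ALPs.

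Signalling genes downstream of the receptor had counts in every ALP library. Blnk, the adaptor that links the receptor kinases to calcium signalling, had 793, 589, 663, 591 and 729 CPM in BLPs and 287, 259.7, 194, 139 and 209 CPM in ALPs, with a log2 fold change of 1.72 ± 0.22 (edgeR adjusted p = 0.0154). Blk, a Src family kinase of B cells, had 94.8, 110.5, 173, 91 and 69.7 CPM in BLPs and 18.7, 28.4, 19.4, 23.2 and 21.7 CPM in ALPs, with a log2 fold change of 2.28 ± 0.31 (edgeR adjusted p = 0.0174). Neither gene overlapped between the populations. Fcrla, an Fc receptor-like protein kept inside B cells, had 91.4, 46.5, 43, 47.1 and 47.3 CPM in BLPs and 3.62, 8.45, 8.43, 6.11 and 10.9 CPM in ALPs. Mzb1, a protein of the endoplasmic reticulum in B cells and plasmacytoid dendritic cells, had 191, 201, 143, 195 and 357 CPM in BLPs and 80.4, 78.2, 41.5, 27.2 and 66.1 CPM in ALPs. BLPs of mouse10360 were highest in Fcrla and those of mouse10384 in Mzb1, and BLPs lay above ALPs in both genes. Their log2 fold changes were 2.93 ± 0.50 and 1.99 ± 0.32 (edgeR adjusted p = 0.0473 and 0.0444). Cd72, an inhibitory receptor of B cells, did not pass, with a log2 fold change of 0.81 ± 0.21 (edgeR adjusted p = 0.223). Of the 7 called members of the list, 1 was called without mouse10360, mouse10361 or mouse10365, 2 without mouse10384 and 5 without mouse10376; the adjusted p of Blnk then ran from 0.0126 to 0.123 and that of Fcrla from 0.089 to 0.242.

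**Figure D2:**
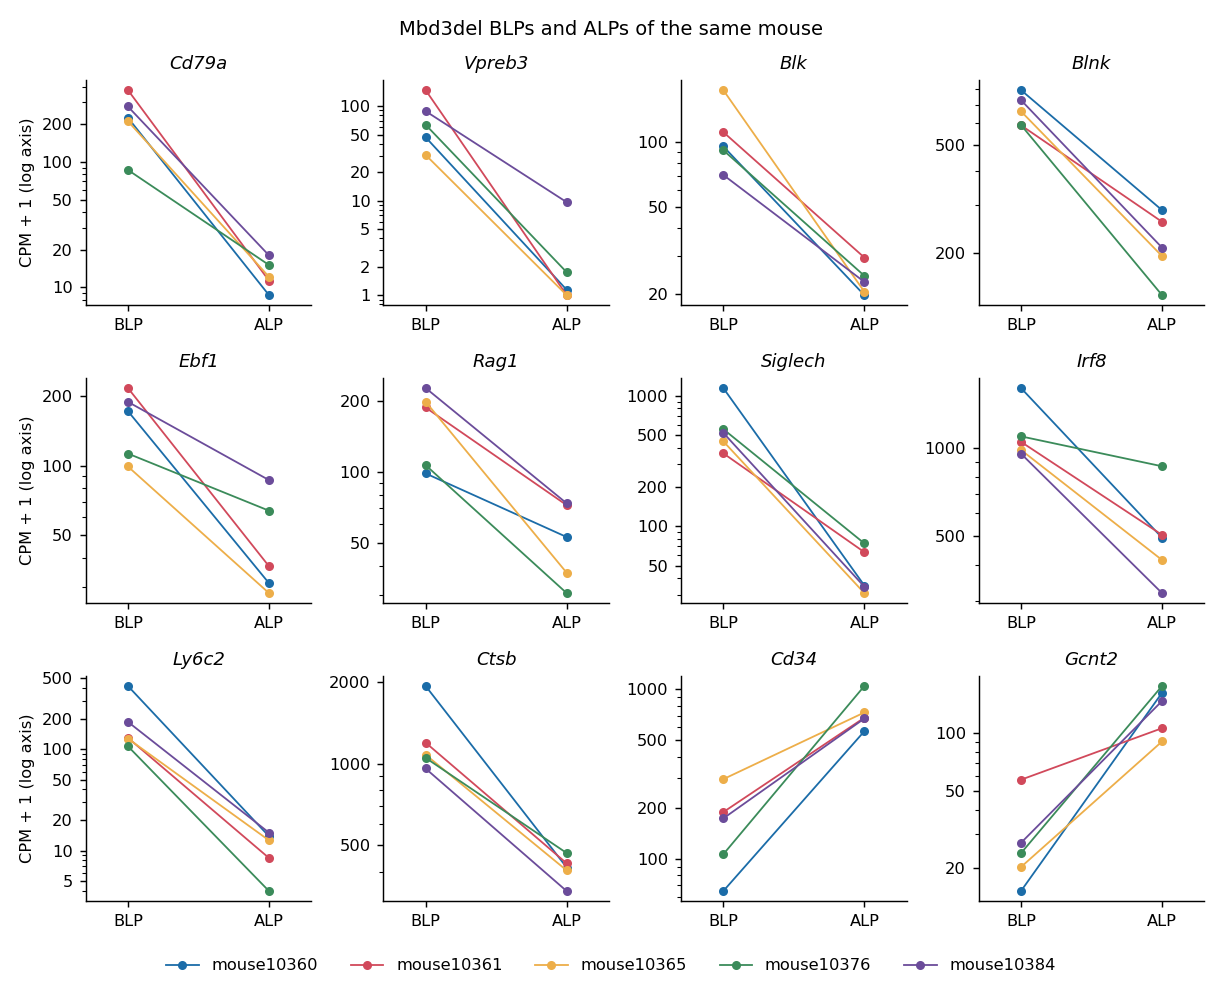
CPM + 1 (log axis) of 12 genes in BLPs (left) and ALPs (right) of the 5 Mbd3del mice, with 1 line per mouse. In the first 10 genes every mouse is higher in BLPs, and in Cd34 and Gcnt2 every mouse is lower in BLPs.

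Among the listed factors that specify the B lineage, Ebf1 alone was called. Ebf1, the pioneer factor of the B lineage (chromosome 11 from 44617317 to 45008091 on the plus strand), had 171, 215, 98.2, 112 and 188 CPM in BLPs and 30.1, 35.8, 27.2, 62.9 and 85.6 CPM in ALPs, a log2 fold change of 1.84 ± 0.31 (edgeR adjusted p = 0.0473). The lowest BLP library, of mouse10365, lay above the highest ALP library, of mouse10384. Of the list of 20 specification factors 17 were tested, 1 was called, 10 were positive and the median log2 fold change was 0.23. Foxo1, which acts with Ebf1 on recombinase and receptor genes, had 123, 113, 56.9, 121 and 212 CPM in BLPs and 51.3, 58.3, 29.1, 11.2 and 14.4 CPM in ALPs, so that the groups overlapped, and a log2 fold change of 2.11 ± 0.54 (edgeR adjusted p = 0.231). Pou2af1, a B cell coactivator of octamer factors, had 6.37, 30.4, 7.14, 6.10 and 10.5 CPM in BLPs and 0, 0, 0.159, 1.37 and 0 CPM in ALPs, with a log2 fold change of 6.46 ± 1.65 (edgeR adjusted p = 0.231); 3 of the 5 ALP libraries had no count. Spib, an Ets factor of B and plasmacytoid dendritic cells, had 117, 16.9, 16.4, 32.4 and 20.5 CPM in BLPs and 4.18, 5.01, 0.318, 6.85 and 4.53 CPM in ALPs, with a log2 fold change of 3.23 ± 0.71 (edgeR adjusted p = 0.143). Neither Pou2af1 nor Spib overlapped between the populations, and neither passed. Ikzf1 and Bcl11a, factors of lymphoid progenitors in general, had log2 fold changes of 0.18 ± 0.22 and 0.34 ± 0.19 (edgeR adjusted p = 0.935 and 0.806).

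Of the recombination genes Rag1 was called. Rag1, the catalytic chain of the V(D)J recombinase, had 97.5, 187, 198, 106 and 226 CPM in BLPs and 51.9, 71.2, 36.3, 29.5 and 72.5 CPM in ALPs, a log2 fold change of 1.71 ± 0.28 (edgeR adjusted p = 0.0473), and no overlap. Rag2, its partner from the same locus, had 293, 438, 378, 229.8 and 369 CPM in BLPs and 352, 237, 338, 192 and 389.9 CPM in ALPs, which overlapped, with a log2 fold change of 0.25 ± 0.23 (edgeR adjusted p = 0.903). Dntt, the polymerase that adds bases at junctions, had 3285, 4950.4, 4940.3, 3116 and 4118 CPM in BLPs and 6412, 6262, 5847, 8567 and 6496 CPM in ALPs. All BLP libraries lay below all ALP libraries in Dntt, but its log2 fold change of -0.67 ± 0.21 did not pass (edgeR adjusted p = 0.378). Of 16 recombination genes 15 were tested, 1 was called, 9 were positive and the median log2 fold change was 0.15. The calls of Ebf1 and Rag1 were lost without any 1 of the 5 mice, with adjusted p of 0.0509 to 0.309 and 0.0719 to 0.197. Among the 14 tested genes of lymphoid priming, a list that also holds Rag1 and Dntt, 6 were positive and the median was -0.38; Il7r, a gate gene, had 461 to 737 CPM in BLPs and 245 to 561 CPM in ALPs.

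Siglech and Irf8, from the list of genes of dendritic cells, rose beside the B lineage genes. A place on the list does not mean that a gene is confined to these cells. Siglech, a surface lectin by which these cells are recognised (chromosome 7 from 55768178 to 55778925 on the plus strand), had 1146, 361, 447, 554 and 519.7 CPM in BLPs and 34.1, 62.3, 29.7, 72.9 and 33.4 CPM in ALPs, a log2 fold change of 3.73 ± 0.36 (edgeR adjusted p = 0.00328). Irf8, a transcription factor of dendritic cells and monocytes among other cells, had 1609, 1053, 987, 1099 and 959 CPM in BLPs and 494, 505, 414, 868 and 319 CPM in ALPs. Its log2 fold change was 1.25 ± 0.21 (edgeR adjusted p = 0.0473). Both genes separated the populations without overlap, the BLPs of mouse10360 being the highest in each. Of 19 dendritic cell genes 13 were tested and Siglech and Irf8 called. Of the 13, 12 were positive, with a median log2 fold change of 0.96. In 5 of 5 mice 7 were higher, against 4.74% of all genes tested. Summed over the list, dendritic cell genes had 3467 to 6808 CPM in BLPs and 1671 to 2434 CPM in ALPs, again without overlap. Klk1 had no count in either population, Batf3 none in BLPs and Tlr9 and Xcr1 none in ALPs. Members that did not pass included Runx2, a factor needed by plasmacytoid dendritic cells, at a log2 fold change of 1.03 ± 0.22 (edgeR adjusted p = 0.112), Bst2, their surface antigen, at 0.95 ± 0.23 (0.19), and Tcf4, their E protein, at 0.52 ± 0.25 (0.737). Siglech was called without each mouse, whereas Irf8 was called only without mouse10376 (edgeR adjusted p of 0.0126 to 0.325 over the 5 mice left out).

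The called genes Ly6c2, Ctsb, Lgals1, Cybb, Cd7, Pld4, Rnase6 and Ctsl are not on the dendritic cell list and are described next to it by a choice made after their values were seen. Ly6c2, which encodes a Ly6 family protein on monocytes and on plasmacytoid dendritic cells, had 418, 128, 126, 106 and 185 CPM in BLPs and 12.8, 7.45, 11.6, 2.99 and 14 CPM in ALPs, a log2 fold change of 4.33 ± 0.38 (edgeR adjusted p = 0.00328), with counts uncertain because of its close copy Ly6c1. Ctsb, a lysosomal cysteine protease, had 1935, 1196, 1079, 1050.5 and 959 CPM in BLPs and 413, 428, 403, 467 and 338 CPM in ALPs, a log2 fold change of 1.62 ± 0.21 (edgeR adjusted p = 0.0135). Lgals1, a galactose-binding lectin, had 1142, 349.8, 460.0, 644 and 516 CPM in BLPs and 125, 98.2, 132, 79.4 and 93 CPM in ALPs, a log2 fold change of 2.53 ± 0.29 (edgeR adjusted p = 0.00974). The BLPs of mouse10360 were the highest in all 3 genes, and BLPs and ALPs did not overlap in any. Cybb, the catalytic chain of the phagocyte oxidase, had 297, 103, 87, 122 and 201 CPM in BLPs and 17.4, 1.29, 11.4, 19.1 and 15.7 CPM in ALPs (log2 fold change 3.86 ± 0.49, edgeR adjusted p = 0.0135). Cd7, a surface protein best known from T and NK cells, had 532, 206, 195, 311 and 282 CPM in BLPs and 29.3, 10.3, 47.5, 27.9 and 29.2 CPM in ALPs (log2 fold change 3.53 ± 0.37, edgeR adjusted p = 0.00564). Both kept BLPs above ALPs throughout. Pld4, a nuclease of endolysosomes, averaged 313 ± 125 CPM in BLPs and 78.3 ± 30.9 CPM in ALPs, Rnase6, a secreted ribonuclease, 326 ± 158 and 66.4 ± 14.2 CPM, and Ctsl, a lysosomal protease, 321 ± 198 and 84.9 ± 52.1 CPM (SD, n = 5 each). Their log2 fold changes were 2.05, 2.26 and 1.98 (edgeR adjusted p = 0.0352, 0.0135 and 0.0174), and Ctsl overlapped between the populations. With each mouse left out in turn, Ly6c2 was called in 5 of 5 cases, Cd7 in 4, Cybb and Lgals1 in 3, Rnase6 and Ctsl in 2, Ctsb in 1 and Pld4 in 0.

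Granulocyte and monocyte genes had log2 fold changes on both sides of 0. Of 27 such genes 17 were tested, Ly6c2 was called, 9 were positive and the median log2 fold change was 0.12, and their summed level was 730.0 to 1039.7 CPM in BLPs and 1015 to 2289.9 CPM in ALPs. Ltf and Ngp, which encode granule proteins of neutrophils, had no count in either population. Elane, Cebpe, S100a9 and Camp had counts in BLPs but none in ALPs, and Ms4a3 and F13a1 had counts in ALPs but none in BLPs. Mpo, the peroxidase of granulocyte progenitors, had 127, 421, 488, 209 and 169.8 CPM in BLPs and 548, 782, 736, 1764 and 480.1 CPM in ALPs (log2 fold change -1.57 ± 0.32, edgeR adjusted p = 0.102). Csf3r, the receptor of granulocyte colony-stimulating factor, had 0.152, 1.41, 5.60, 0 and 0.308 CPM in BLPs and 20.2, 25.3, 18.3, 46.4 and 9.77 CPM in ALPs (log2 fold change -5.12 ± 1.29, edgeR adjusted p = 0.223). Csf3r did not overlap between the populations and Mpo did, and neither passed. The part of any admixed cell type in the rise of Siglech, Irf8 and the genes described with them was not tested.

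The other genes that rose have varied roles. Chchd10, a protein of the mitochondrial intermembrane space, had 382, 404, 376, 323 and 445 CPM in BLPs and 89.9, 93.9, 62.5, 48.6 and 57.9 CPM in ALPs, a log2 fold change of 2.55 ± 0.24 (edgeR adjusted p = 0.00328), with no overlap. Dlg2, a scaffold protein best known from synapses, had 69.3, 46.2, 28.2, 39.3 and 66.8 CPM in BLPs and 3.48, 1.86, 0, 0.498 and 6.37 CPM in ALPs, a log2 fold change of 5.09 ± 0.79 (edgeR adjusted p = 0.0399), also with no overlap. Beta subunits of the sodium-potassium pump rose in the same step: Atp1b1 had 488, 217, 215, 232 and 210.0 CPM in BLPs and 70.1, 64.4, 20.8, 64.7 and 27.2 CPM in ALPs, and Atp1b3 1542, 1799.6, 1612, 1086 and 1939 CPM in BLPs and 765, 648, 861, 703 and 724 CPM in ALPs. Their log2 fold changes were 2.60 ± 0.28 and 1.15 ± 0.19 (edgeR adjusted p = 0.00611 and 0.0473). Klrd1, the CD94 chain of NK cell receptors, was the called one of 8 tested NK and innate lymphoid genes, whose median was 0.37; it had 178, 101, 54.8, 113 and 93.3 CPM in BLPs and 36, 13.6, 20.4, 34.5 and 39.5 CPM in ALPs. Gimap4, a GTPase of lymphocytes, was the called one of 8 Gimap family genes (log2 fold change 2.19). Asf1b, a histone chaperone of dividing cells, averaged 399.6 ± 46.2 CPM in BLPs and 159 ± 46.8 CPM in ALPs (log2 fold change 1.43, edgeR adjusted p = 0.0352). Nucb2, a calcium-binding protein, averaged 313 ± 75.8 and 83.1 ± 12.7 CPM (log2 fold change 1.95, edgeR adjusted p = 0.00974). The remaining called genes were Ly6e, Ly6a, Msmo1, Pkig, Tex2, Tubgcp5, Stambpl1, Tpm4 and Sec24d, with log2 fold changes between 1.21 and 1.88; Msmo1, Sec24d and Gimap4 overlapped between the populations. With each mouse left out in turn, Chchd10 was called in 5 of 5 cases, Atp1b1 in 3, Nucb2 in 2, Atp1b3, Asf1b and Gimap4 in 1, and Dlg2 and Klrd1 in 0.

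Cd34, a sialomucin of stem and early progenitor cells (chromosome 1 from 194938819 to 194961279 on the plus strand), fell in BLPs. It had 63.7, 188, 294, 105 and 172 CPM in BLPs and 565, 679, 729, 1045 and 671 CPM in ALPs, a log2 fold change of -2.25 ± 0.30 (edgeR adjusted p = 0.0174), and every BLP library lay below every ALP library. Gcnt2, an enzyme that branches poly-N-acetyllactosamine chains on glycans, fell too, with 14.3, 56.4, 19.3, 22.9 and 26.1 CPM in BLPs and 161, 105, 89.5, 174 and 145 CPM in ALPs and a log2 fold change of -2.35 ± 0.38 (edgeR adjusted p = 0.0473). Ctr9, a subunit of the PAF1 complex that travels with RNA polymerase II, had 80.7, 92.7, 179, 130.2 and 43 CPM in BLPs and 236, 269, 269, 845 and 196 CPM in ALPs, where mouse10376 stood far above the other 4. Its log2 fold change was -1.65 ± 0.28 (edgeR adjusted p = 0.0473), with no overlap. Lrrc23, a radial spoke protein of cilia, had 0, 0, 0, 0 and 0.154 CPM in BLPs and 4.46, 5.01, 14.5, 10.1 and 20.9 CPM in ALPs. That was 1 count in 5 BLP libraries against 387 in 5 ALP libraries; relative to the gene counts, the BLP level was 0.306% of the ALP level (95% counting interval 0.00773% to 1.72%, counting error only), and the edgeR adjusted p was 0.0473. With each mouse left out in turn, Cd34 was called in 2 of 5 cases, Gcnt2 in 1 and Ctr9 and Lrrc23 in 0.

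Cd34 was the called one of 14 tested genes of stem and multipotent cells, a list of 24 whose median log2 fold change was -0.94. Of the 14, 9 were negative and 5 were lower in 5 of 5 mice, against 5.62% of all genes tested. The summed level of the list was 343 to 748 CPM in BLPs and 1189 to 1896 CPM in ALPs, without overlap. Hoxa9, a homeobox factor of early progenitors, had 39.7, 60.6, 61.9, 42.4 and 74 CPM in BLPs and 91.7, 111, 108, 108 and 88.9 CPM in ALPs (log2 fold change -0.84 ± 0.26, edgeR adjusted p = 0.379). Lmo2, a bridging factor of stem cell transcription complexes, had 61.1, 67.9, 76.4, 65.2 and 72.6 CPM in BLPs and 182, 203, 102, 125 and 238 CPM in ALPs (log2 fold change -1.18 ± 0.27, edgeR adjusted p = 0.172). BLPs lay below ALPs in both genes, though neither passed. Mycn averaged 6.32 ± 4.72 CPM in BLPs and 43.3 ± 27.9 CPM in ALPs (log2 fold change -2.94 ± 0.90, edgeR adjusted p = 0.368), and Meis1, a partner of Hoxa9, overlapped, with a log2 fold change of -0.73 ± 0.34 (edgeR adjusted p = 0.72).

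**Figure D3:**
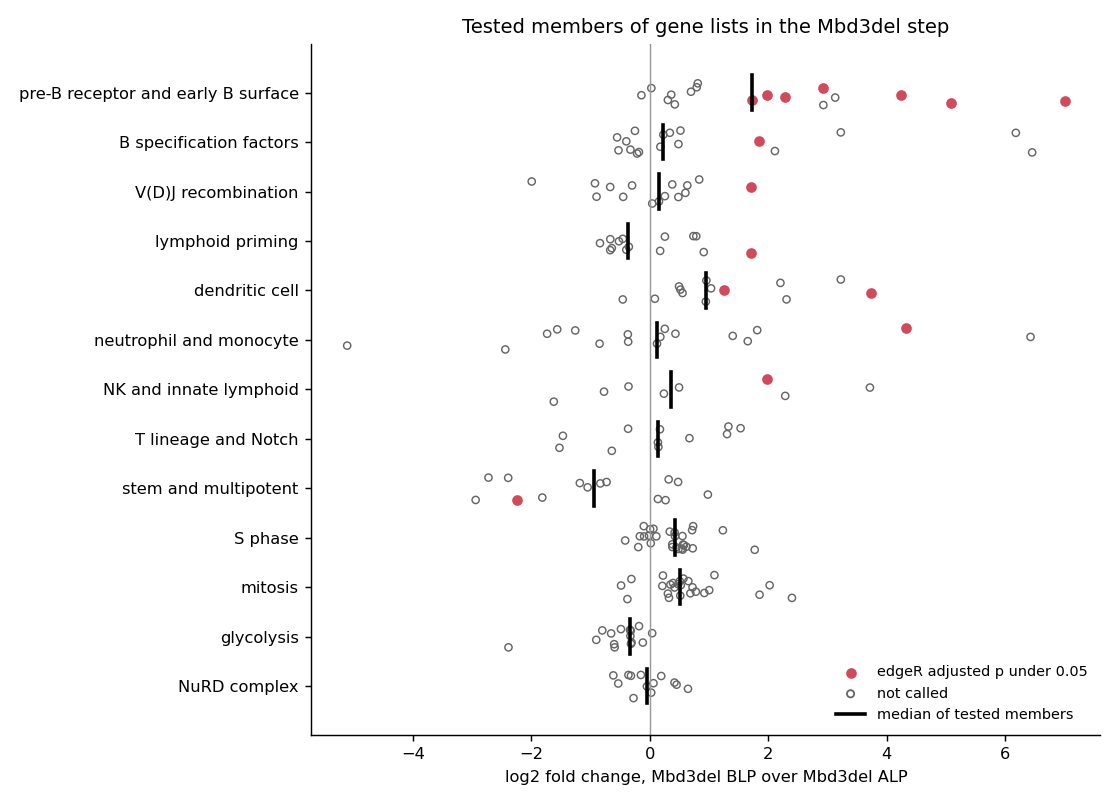
Log2 fold change, Mbd3del BLP over Mbd3del ALP (x axis), of the tested members of 13 gene lists (y axis). Red points have an edgeR adjusted p under 0.05, open points do not, and the black bar is the median of the tested members, from 1.72 for pre-B receptor and early B surface genes to -0.94 for stem and multipotent genes.

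No gene of the cell cycle lists passed, although most members were positive. Of 28 S phase genes 22 were positive, with a median log2 fold change of 0.42 and 7 higher in 5 of 5 mice. Of 25 mitosis genes 22 were positive, with a median of 0.51 and 3 higher in 5 of 5. Over all 10842 genes tested 5379 were positive, and 4.74% were higher in 5 of 5 mice. Rrm2, the small subunit of ribonucleotide reductase, was nearest to the threshold, with 691, 699, 631, 421 and 619 CPM in BLPs and 309, 253, 260.3, 370.3 and 182 CPM in ALPs (log2 fold change 1.23 ± 0.23, edgeR adjusted p = 0.0641), and its groups did not overlap. Ccne1, cyclin E1, averaged 58.8 ± 24.9 CPM in BLPs and 17.3 ± 4.65 CPM in ALPs (log2 fold change 1.77 ± 0.36, edgeR adjusted p = 0.102). Ccna2, cyclin A2, averaged 204 ± 39.2 CPM in BLPs and 71.4 ± 43.6 CPM in ALPs (log2 fold change 1.85 ± 0.41, edgeR adjusted p = 0.147). Cdkn2d, an inhibitor of the early G1 kinases, had a log2 fold change of 1.55 ± 0.31 (edgeR adjusted p = 0.102). The summed S phase level was 7014 to 8982 CPM in BLPs and 4862 to 9952 CPM in ALPs, and the highest of all was the ALP library of mouse10376. Myc, by contrast, was lower in 5 of 5 mice without passing, with 177, 503, 579.7, 275 and 292 CPM in BLPs and 741, 783, 684, 889 and 494 CPM in ALPs (log2 fold change -1.01 ± 0.27, edgeR adjusted p = 0.276).

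Other lists held few or no calls. Of 15 glycolysis genes 14 were negative with a median of -0.33 and none called; Pfkm, the muscle type phosphofructokinase, had 5.15, 7.05, 6.75, 3.66 and 6.48 CPM in BLPs and 34, 25.9, 19.1, 53.1 and 32.8 CPM in ALPs (log2 fold change -2.39 ± 0.55, edgeR adjusted p = 0.159). Of 75 tested genes of cytosolic ribosomal proteins 64 were negative, with a median of -0.23 and none called. Among all 10842 genes tested, 5463 were negative. The 26 tested interferon-stimulated genes had a median of 0.62 and no call, and the median was 0.08 without mouse10361. The 13 tested genes of the NuRD complex had a median of -0.05, with 6 positive and none called. Among surface receptors, Slamf6, a SLAM family receptor of lymphocytes, had 117, 53, 29.7, 105 and 107 CPM in BLPs and 0.139, 9.16, 0, 8.47 and 0.283 CPM in ALPs without overlap (log2 fold change 5.92 ± 1.12, edgeR adjusted p = 0.0738). Id3, an inhibitor of E proteins, had 61.6, 6.48, 4.63, 38.9 and 25.4 CPM in BLPs and 14.5, 0.143, 0.318, 1.74 and 0.142 CPM in ALPs, which overlapped (log2 fold change 4.49 ± 0.89, edgeR adjusted p = 0.0921).

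The same step in control mice, which shares no library with the Mbd3del step, was set beside it. Sex-linked transcripts went against the labelled sex in 2 of the 5 control mice, in 8 of their 8 libraries, so the control step and the difference of the steps are also given without those mice, an alternative chosen after seeing the data. In the control step 13 of 10905 genes were higher (0.119%) and 1 was lower (0.00917%), and without those 2 mice 4 were higher and 0 lower. Without control mouse10380 8 were higher and 0 lower, and without control mouse10372 14 and 1. Higher in both steps were 10 genes, which is 27.0% of the 37 and 76.9% of the 13: Vpreb3, Cd79a, Blk, Mzb1, Ebf1, Rag1, Ly6d, Dlg2, Chchd10 and Atp1b3. Ly6d is counted here although the sort fixes its direction in both genotypes. All 36 of the 37 that were tested in control mice had a positive log2 fold change there, against 50.1% of all genes, and 3 of the 4 lower genes a negative one. The median log2 fold change of the 37 was 1.98 in Mbd3del mice, on which they were chosen, and 1.56 in control mice; without those 2 mice 35 of the 36 were positive, with a median of 1.5. The 13 genes called higher in control mice were all positive in Mbd3del mice. Over 10426 genes tested in both, the log2 fold changes had a Pearson correlation of 0.27 and a Spearman correlation of 0.18, across genes, which are not independent.

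**Figure D4:**
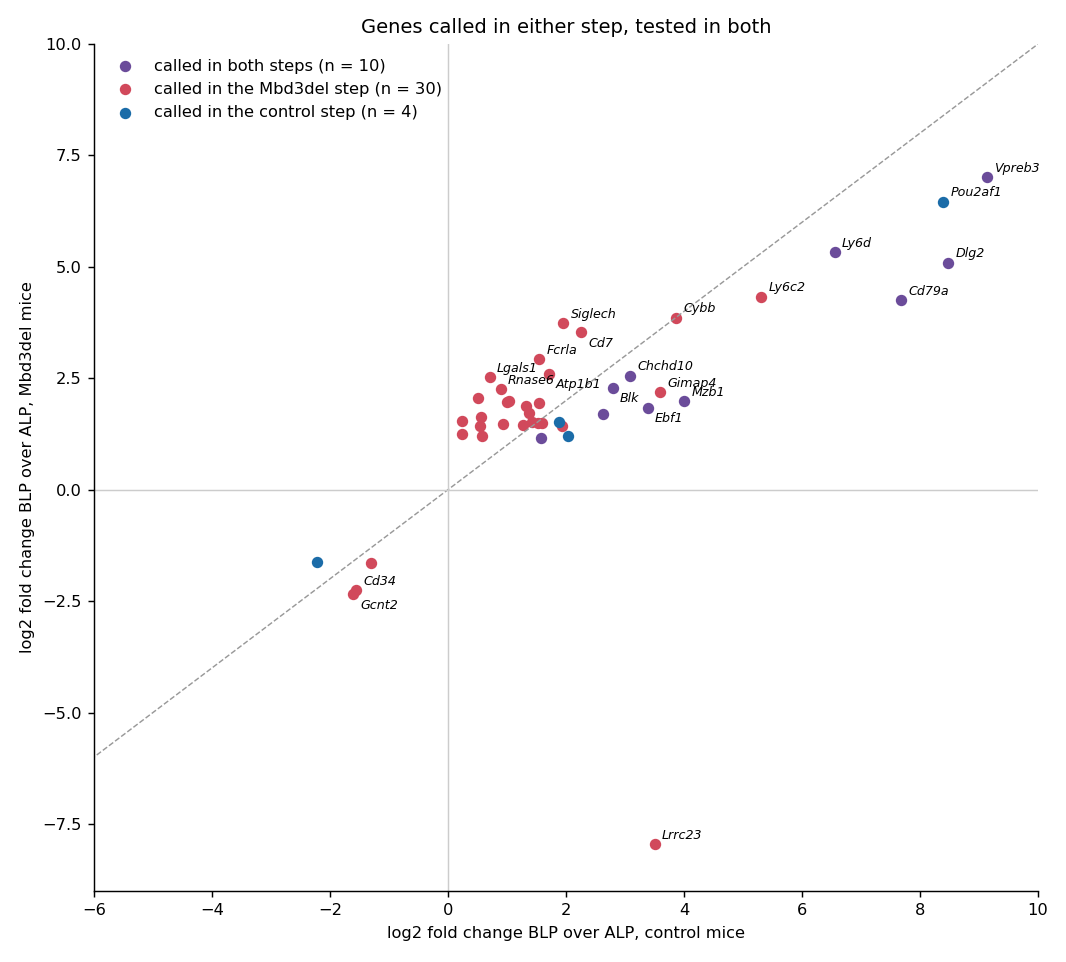
Log2 fold change BLP over ALP in Mbd3del mice (y axis) against that in control mice (x axis) for 44 genes called in either step and tested in both. Purple points were called in both steps (n = 10), red points in the Mbd3del step (n = 30) and blue points in the control step (n = 4), and the dashed line marks equal values. Cd79a, Dlg2 and Mzb1 lie below the line and Siglech, Cd7 and Lgals1 above it, and Lrrc23 lies apart with opposite signs.

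No gene passed the edgeR test of the difference between the steps, so no gene was shown by it to change differently without Mbd3. The edgeR interaction test called 0 of 12123 genes (0%), with a smallest adjusted p of 0.451 for Lrrc23 and 412 genes at an unadjusted p under 0.05 (3.40%), while limma voom called 0 with a higher and 1 with a lower Mbd3del step and DESeq2 17 and 12. Cd79a averaged 253 ± 219.7 CPM in BLPs and 1.57 ± 2.07 CPM in ALPs of control mice, where its log2 fold change was 7.68 ± 0.78 (edgeR adjusted p = 0.00573). The step in Mbd3del minus that in control mice was -3.41 ± 0.82 on the log2 scale (unadjusted p = 0.000911, edgeR adjusted p = 1; DESeq2 adjusted p = 0.00254). Mzb1 averaged 191 ± 77.8 CPM in BLPs and 12.9 ± 5.89 CPM in ALPs of control mice, and its difference between the steps, Mbd3del minus control, was -2.02 ± 0.46 (unadjusted p = 0.000592, edgeR adjusted p = 1; DESeq2 adjusted p = 0.011). In Mbd3del mice Cd79a averaged 235 CPM in BLPs and 12 CPM in ALPs, and Mzb1 217 CPM in BLPs and 58.7 CPM in ALPs. The difference for Ebf1 was -1.55 ± 0.49 (unadjusted p = 0.00701, edgeR adjusted p = 1, DESeq2 adjusted p = 0.202), with 228 ± 34.4 CPM in control BLPs and 26.3 ± 15.6 CPM in control ALPs. Without both control mice whose sex label did not match, the interaction again called 0 genes in edgeR (smallest adjusted p = 0.836, 385 genes at an unadjusted p under 0.05), and the differences for Cd79a, Mzb1 and Ebf1 were -3.0, -2.43 and -1.04. In the control step taken alone, Mzb1 was then still called (edgeR adjusted p = 0.00611), whereas Cd79a and Ebf1 were not (0.198 each); with 3 control mice left their log2 fold changes were 7.14 ± 0.98 and 2.88 ± 0.40, against 7.68 and 3.38 with 5.

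Differences of the opposite sign were found for Siglech, Irf8, Lgals1 and Pld4, and again none passed. All were called in the Mbd3del step and not in the control step, a choice that favours a positive difference. Their unadjusted p-values are therefore not those of genes picked beforehand. Over all genes in the edgeR interaction test, 3.40% had an unadjusted p under 0.05. Siglech averaged 267 ± 137 CPM in BLPs and 69.5 ± 27.4 CPM in ALPs of control mice (log2 fold change 1.95 ± 0.36, edgeR adjusted p = 0.137), and the Mbd3del step exceeded the control step by 1.78 ± 0.51 (unadjusted p = 0.00353, edgeR adjusted p = 1). Irf8 averaged 625 ± 189.9 and 558 ± 169 CPM in BLPs and ALPs of control mice (log2 fold change 0.24 ± 0.27, edgeR adjusted p = 1), with a difference of 1.01 ± 0.34 (unadjusted p = 0.00983, edgeR adjusted p = 1). For Lgals1 the difference was 1.81 ± 0.56 and for Pld4 1.54 ± 0.51 (unadjusted p = 0.00564 and 0.0087, edgeR adjusted p = 1 each). By DESeq2 the adjusted p of these differences was 0.0767 for Siglech, 0.202 for Irf8, 0.0824 for Lgals1 and 0.182 for Pld4. The other called genes described next to the dendritic cell list were not alike in this. Ly6c2 and Cybb had differences of -0.75 ± 0.67 and 0.09 ± 1.73. Those of Ctsb, Cd7, Rnase6 and Ctsl were 1.07, 1.28, 1.36 and 0.95. Spib, which was not called, had a difference of -1.18 ± 2.57. The dendritic cell list had a median log2 fold change of 0.96 in Mbd3del mice and 0.16 in control mice, and its summed level in control mice was 1594 to 3718 CPM in BLPs and 1790.4 to 3184 CPM in ALPs, which overlapped. The mitosis list had medians of 0.51 and -0.35 in Mbd3del and control mice, and the S phase list 0.42 and -0.02. Ccna2 had a difference of 2.17 ± 0.62 and Cdkn2d of 1.42 ± 0.42 (unadjusted p = 0.00323 and 0.00429, edgeR adjusted p = 1 each). Their DESeq2 adjusted p was 0.0663 and 0.149. Slamf6, not called in the Mbd3del step, had a difference of 3.95 ± 1.24 (edgeR unadjusted p = 0.00641). That difference did not pass in edgeR but did in DESeq2 (adjusted p = 0.00628). Without those 2 control mice the differences for Siglech, Irf8, Lgals1 and Pld4 were 1.52, 0.90, 1.80 and 1.5. Cd34 and Gcnt2 had negative log2 fold changes in control mice too, of -1.56 ± 0.25 and -1.61 ± 0.28 (edgeR adjusted p = 0.0793 and 0.103) that did not pass.

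**Figure D5:**
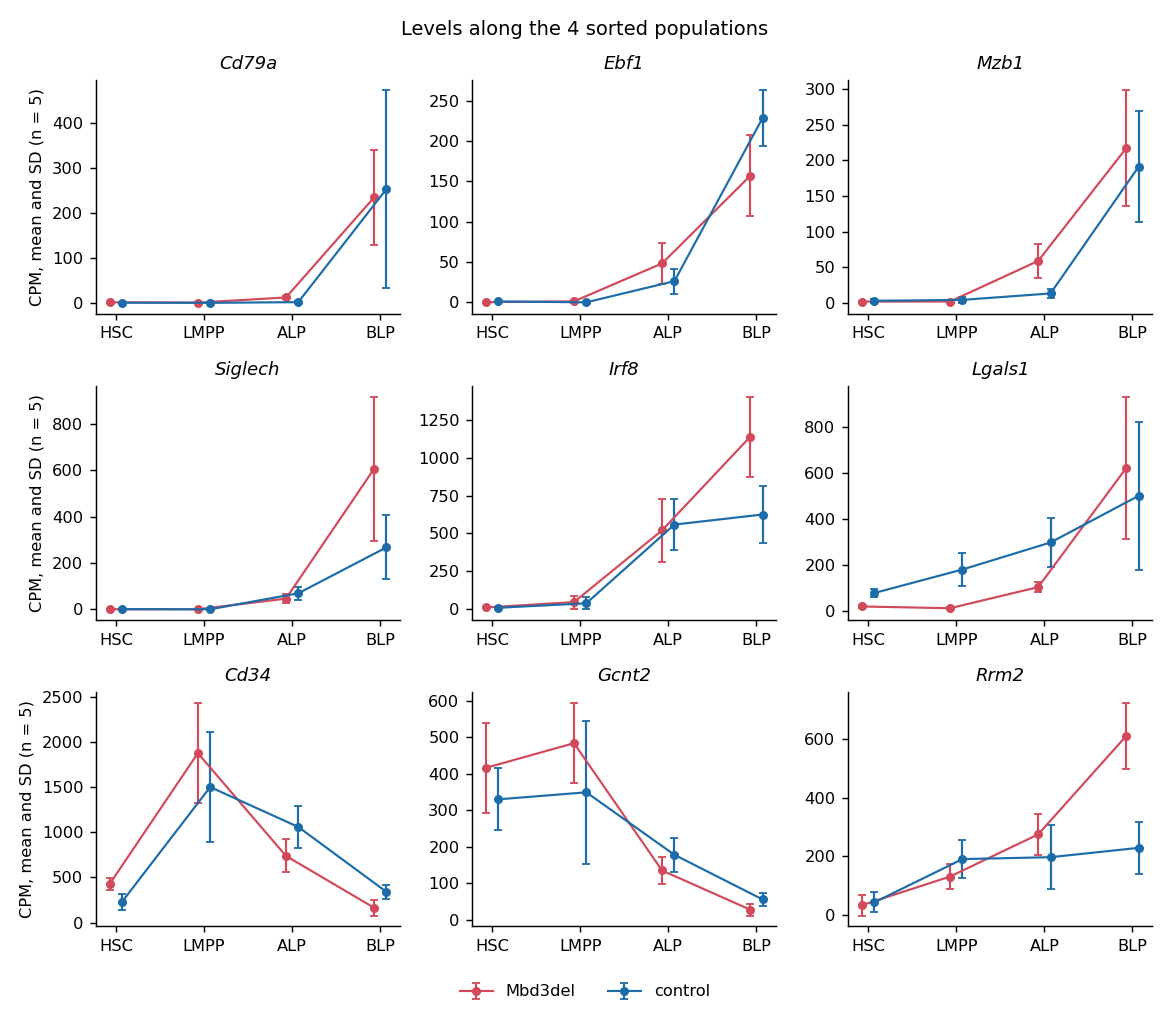
Mean CPM with SD (y axis, n = 5 libraries per point) of 9 genes along 4 sorted populations (x axis: haematopoietic stem cells, lymphoid-primed multipotent progenitors, ALPs and BLPs) in Mbd3del (red) and control (blue) mice. Cd79a, Ebf1, Mzb1 and Siglech lie below 4 CPM in the first 2 populations in both genotypes, Irf8 averages 1141 CPM in Mbd3del BLPs and 625 CPM in control BLPs, and Cd34 peaks in lymphoid-primed multipotent progenitors.

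The genes that rose in BLPs had unlike levels in the earlier populations. Cd79a in Mbd3del mice averaged 1.18 ± 1.83 CPM in haematopoietic stem cells (HSCs), 0.569 ± 0.676 CPM in lymphoid-primed multipotent progenitors (LMPPs), 12 ± 3.59 CPM in ALPs and 235 ± 105 CPM in BLPs (SD, n = 5 each). Irf8 averaged 7.52, 43.1, 519.9 and 1141 CPM in HSCs, LMPPs, ALPs and BLPs. Lgals1 averaged 21.6, 14.1, 106 and 622 CPM in the same order in Mbd3del mice, and 80.0, 182, 299 and 501 CPM in control mice. Gcnt2 averaged 416, 483, 135 and 27.8 CPM in Mbd3del mice, with its lowest level in BLPs. HSC libraries came from pools of 150 cells and the others from pools of 100. These levels are descriptions, and the steps before the ALP stage were not tested here.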

How the data were processed

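Raw read counts of 40 libraries stand in 1 table that the authors deposited. Per the submitters' processing notes, HTSeq 0.6.1p1, STAR 2.5.2b and the build GRCm38 were used. The strand setting, the annotation release and what the 79325 rows named repRegion hold were not given in the sources used here. Those rows, 0.281% to 0.985% of a library, were left out, and the 49585 gene rows were used. Of these, 49326 took their symbol and coordinates from GENCODE M21 and 259 found none, and 27810 had no count in the 10 libraries of the step.

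Counts were tested with edgeR 4.0.16 in R 4.3.3 by the robust quasi-likelihood F test (legacy estimator) with TMM scaling, edgeR's own filter on low counts (at least 10 counts, 15 in total), the mouse as a block and Benjamini-Hochberg adjustment over all genes tested at 0.05. The control step and the difference of the steps (interaction) were fitted in the same way. Each SE of an edgeR log2 value was derived from the test, as the absolute value divided by the square root of F. It is therefore approximate. The pairing comes from the labels, which give an ALP and a BLP library from the same animal. In Mbd3del mice, deviations of same-mouse libraries from their group means correlated at -0.115 to 0.106 across genes. Between BLP and ALP libraries of different mice the values were -0.141 to 0.146, so the same-mouse values did not stand out. Replicates are separate mice. Alternatives were DESeq2 1.42.0, voom of limma 3.58.1, no mouse term, other scalings, filters and estimators, a joint fit and leaving out each mouse. CPM values are counts scaled to a library's gene counts, without TMM. Promoters are RefSeq's on GRCm38.p6. Some results are not reported here. Sex-linked transcripts matched the labelled sex in all 5 Mbd3del mice and did not in 2 of 5 control mice. The scripts were tested on simulated data.

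The members and the 33 gene lists were chosen with earlier results of these data known, and lists are described by counts and medians without a test. Named by rule were Mbd3, up to 12 genes per direction with the largest fold among called genes whose mean reached 5 CPM in the higher population and the same direction in 5 mice, unnamed gene models left out, and list members by role; other called genes were named after their values were seen. Intervals and floors (3 counts) cover counting error only, since copies made by PCR are not separate molecules.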

Additional observations from a re-analysis of the deposited data

Results flagged for a closer look

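In 13 of 146 groups of 5 libraries, 1 library lay farther from the others on the log2(CPM + 1) scale than Dixon's 95% critical value allows, where chance gives about 1 in 20. Among BLPs, mouse10360 was high in Fcrla (91.4 CPM), Atp1b1 (488 CPM), Irf8 (1609 CPM) and Bcl11a (576 CPM), mouse10376 was low in Rrm2 (420.5 CPM), and mouse10384 had the 1 count of Lrrc23 (0.154 CPM). Among ALPs, mouse10376 was high in Ctr9 (845 CPM), Dntt (8567 CPM) and Pou2af1 (1.37 CPM), mouse10384 was high in Vpreb3 (8.63 CPM) and low in Cdkn2d (13.6 CPM), mouse10361 was low in Cybb (1.29 CPM) and mouse10365 was low in Spib (0.318 CPM).

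Lrrc23 was lower in BLPs of 5 of 5 Mbd3del mice and higher in BLPs of 5 of 5 control mice. Control BLPs had 2.29, 0.836, 4.45, 3.83 and 11.4 CPM and control ALPs 0, 0, 0.595, 0.330 and 4.52 CPM. The Mbd3del step minus the control step was -11.54 ± 2.0 on the log2 scale, with an adjusted p of 0.451 in edgeR and 2.73e-06 in DESeq2. The 5 Mbd3del BLP libraries together held 1 count, so the fitted size depends on the prior count.

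The repRegion rows, outside all gene tests, took a median of 0.447% of the counts of Mbd3del BLP libraries and 0.500% of those of Mbd3del ALP libraries.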

How the results depend on the processing

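Counts of genes higher and lower in Mbd3del BLPs, 37 and 4, were 278 and 107 with DESeq2, 64 and 9 with limma voom, 96 and 21 with the newer estimator, 82 and 13 without the expression filter, 23 and 1 without scaling, 30 and 26 in the joint fit, 39 and 4 with RLE scaling and 50 and 4 at a minimum count of 50. Without the replicate block they were 55 and 14, with 30 of the 37 and 3 of the 4 shared. Leaving out 1 mouse gave 5 to 34 and 0 to 13. The control step, 13 and 1, gave 104 and 55 with DESeq2, 25 and 3 with voom, 35 and 6 with the newer estimator, 42 and 8 without the filter, 27 and 13 in the joint fit, 26 and 3 without the replicate block, 4 and 0 without both control mice whose sex label did not match, and 4 to 14 and 0 to 1 with 1 mouse left out. The interaction, 0 and 0, gave 17 and 12 with DESeq2, 0 and 1 with voom, 3 and 3 without the filter, 0 and 1 without control mouse10380, 0 and 0 without the replicate block and 0 to 0 and 0 to 1 over the 10 mice left out in turn. No called gene, and none of 31 named genes that were not called, changed direction under an alternative that tested it. The cause of these differences was not tested. Genes near 1 CPM rest on few counts.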
